A study of Nematostella vectensis with 4 samples.

Results

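The 10 genes that the study listed as mitochondrial, of 24526 genes counted, were followed across single cells of the gastrula of the sea anemone *Nematostella vectensis*. The 10 were taken by gene ID from that list and not by a threshold on their values, though earlier results of these data were known. Each was measured in all cell barcodes with at least 500 detected genes and with no limit on mitochondrial counts, because the sum of these genes is itself a quality filter in such data. A single pool of dissociated whole embryos, 24 h after fertilization, was run 4 times on 1 droplet chip (10x Genomics, 3′ counting), which gave 4 technical replicates. The labels name no treatment, genotype or strain, and no group of embryos was set against another. The comparisons were between barcodes of the same libraries, either barcodes with at least 1 count of a cell type marker against those with none, or deep against shallow barcodes. P-values therefore measure only the technical spread between 4 libraries.

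Mitochondria make ATP by passing electrons along a chain of protein complexes to oxygen and letting protons flow back through the ATP synthase. In animals the mitochondrion keeps a small genome of its own for a few core subunits of the chain and transcribes it in many copies per cell, while most mitochondrial proteins are encoded in the nucleus and imported. In droplet data a high share of mitochondrial RNA is commonly used as a sign of a damaged cell, since a torn membrane loses cytosolic RNA while mitochondria are retained.

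The list holds chain 2 of NADH-ubiquinone oxidoreductase (ND2, NV2g025931000.1), a core subunit of complex I that animals encode in the mitochondrial genome. Subunits 5A (COX5A, NV2g024053000.1) and 5B (COX5B, NV2g000772000.1) belong to cytochrome c oxidase, the last complex of the chain, and a COX assembly protein homolog (CMC, NV2g006232000.1) helps to build it. Assembly factors 1 (ATPAF1, NV2g000053000.1) and 2 (ATPAF2, NV2g007852000.1) act on the F1 part of the ATP synthase. The beta subunit of GDP-forming succinate-CoA ligase (SUCLG2, NV2g001453000.1) is an enzyme of the citric acid cycle. The translation factor GUF1 homolog (GUF1, NV2g002690000.1) and ribosomal protein L22 (MRPL22, NV2g002424000.1) serve protein synthesis inside the organelle, and HSP75 (NV2g002540000.1) is its Hsp90-type chaperone. In animals the proteins other than ND2 are products of nuclear genes. The short names are used here for brevity, and the data at hand did not show which genome each ID lies in.

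The files held 18779 barcodes, of which 16089 had at least 500 genes (3680, 2907, 2268 and 7234 in replicates 1 to 4). Total counts of unique molecular identifiers (UMIs, 1 per captured transcript) in those barcodes were 44886014, 24776714, 22712171 and 56076579. Median UMIs per barcode were 6556, 4986, 5285 and 2267, lowest in replicate 4. Of 18740 distinct barcode sequences 38 occurred in more than 1 library.

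Levels are given as UMIs per 1000000 UMIs (CPM) or as a percent of UMIs, both per transcript molecule, since a 3′ count does not depend on gene length. ND2 held 87.1% of the UMIs of the list and COX5A 9.67%, which left 3.24% to the other 8 genes. ND2 stood at 9495, 7884, 5806 and 7559 CPM in replicates 1 to 4, and was the 4th, 6th, 10th and 7th most abundant of all genes. It was thus highest in replicate 1 and lowest in replicate 3. COX5A stood at 909, 879, 861 and 867 CPM, which is a far narrower range. SUCLG2 averaged 92.3 ± 6.27 CPM and CMC 86.5 ± 3.20 CPM (SD, n = 4), a difference within the spread of SUCLG2. ATPAF1 followed at 35.6 ± 1.14 CPM. HSP75, ATPAF2, GUF1 and MRPL22 lay below it, and COX5B was lowest at 5.66 ± 0.25 CPM, or 850 UMIs in all. The IDs listed as COX5A and COX5B, subunits of the same complex, were therefore far apart in captured transcripts. Gene names are those of the study's list, and whether each ID is the main gene of that name was not tested.

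The share of UMIs on the list was 1.07%, 0.905%, 0.695% and 0.873% in replicates 1 to 4, a mean of 0.886% ± 0.154 (SD, n = 4). ND2 alone made up 0.769% ± 0.151 and the other 9 genes 0.117% ± 0.00256. Nearly all of the spread between libraries was thus in ND2. In the 2690 barcodes under 500 genes, which the other results leave out, ND2 averaged 5.62% ± 2.45 of UMIs, while the other 9 genes were at 0.0809% ± 0.00443.

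The question of depth was asked by sorting barcodes into 6 bins of total UMIs, with edges at 1000, 2000, 5000, 10000 and 20000, and summing each bin within each library. From the shallowest to the deepest bin ND2 averaged 2.45% ± 0.453, 2.89% ± 0.923, 1.66% ± 0.430, 1.12% ± 0.272, 0.917% ± 0.279 and 0.331% ± 0.0885 of UMIs (SD, n = 4). The 2 shallowest bins did not differ beyond their spread. The means of the 4th and 5th bins also lay within 1 SD, although each library had the lower value in the deeper of them. In barcodes with 20000 or more UMIs ND2 had 4386, 2721, 2459 and 3659 CPM in replicates 1 to 4, against 28449, 28457, 20256 and 21003 CPM in barcodes under 1000 UMIs. The groups did not overlap. The sum of the other 9 genes went the other way, with 1234 ± 41.0 CPM in the deepest bin and 944 ± 91.6 CPM in the shallowest. COX5A, with 74.9% of the UMIs of these 9, had 930 ± 40.4 and 620 ± 95.5 CPM. The 9 did not rise as a group. ATPAF2 (18.4 and 39.6 CPM), HSP75 (22.7 and 41.6 CPM) and GUF1 (16.0 and 24.9 CPM) had lower means in the deepest bin. Those of SUCLG2, CMC, ATPAF1, COX5B and MRPL22 were higher there, by little for the last. The number of ND2 molecules per barcode still grew with depth, with medians of 12, 19, 34, 63, 108 and 133 UMIs from the shallowest to the deepest bin. That is 11.1-fold, while the median of total UMIs grew 41.9-fold. The ratio of ND2 to COX5A UMIs, which needs no total, was 40.6 ± 11.96, 41.9 ± 12.4, 21.9 ± 5.85, 13.1 ± 3.38, 10.96 ± 3.47 and 3.54 ± 0.837 along the bins (SD, n = 4).

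**Figure D1:**
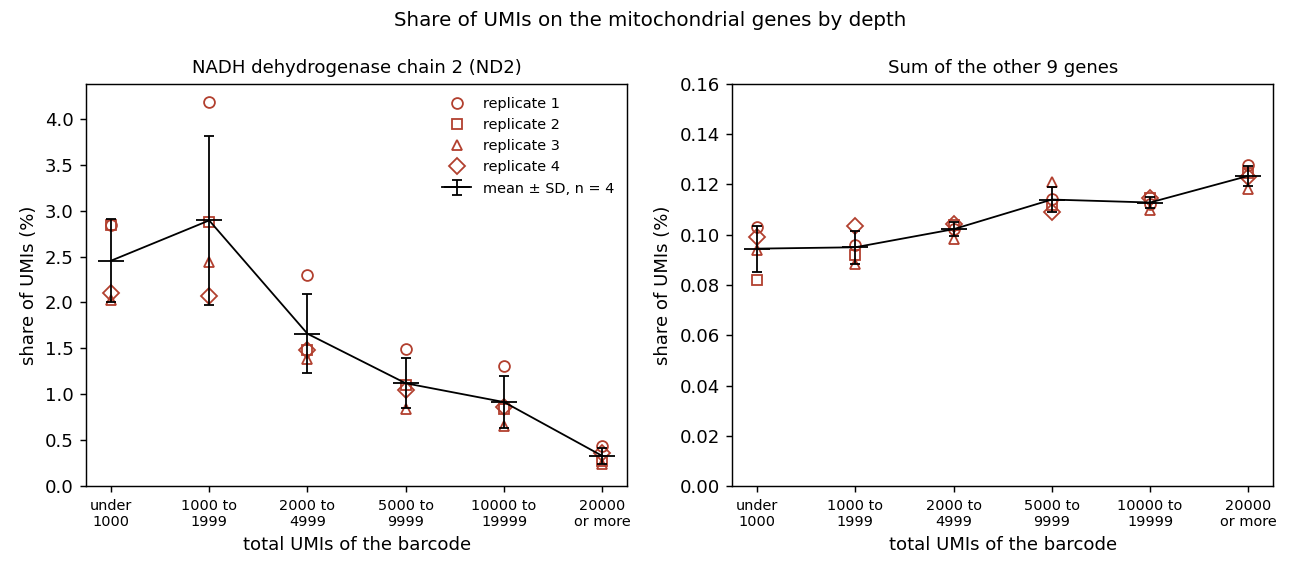
Percent of UMIs on ND2 (left) and on the sum of the other 9 genes (right) against bins of total UMIs per barcode, both axes of shares starting at 0. Each symbol is a library and the black line joins means with SD of 4 libraries. ND2 falls to 0.331% in the deepest bin, against 2.45% in the shallowest, and the other 9 genes stay between 0.0818% and 0.128% in every library and bin.

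Sums of the deepest bin were compared with those of the shallowest by the quasi-likelihood test of edgeR over all 6 bins and 4 libraries, with TMM factors and Benjamini-Hochberg adjustment over 15589 genes, called at 0.05. Of the 10 genes 5 were called, beside 33.0% of all genes tested. ND2 was lower in the deepest bin by a log2 fold change of -2.33 ± 0.26 (SE, edgeR adjusted p = 3.1e-07). COX5A was higher by 1.12 ± 0.11 (adjusted p = 7.0e-08). SUCLG2 (0.71), ATPAF1 (0.71) and CMC (0.65) were also called higher. HSP75 (-0.37), ATPAF2 (-0.36), GUF1 (-0.01), MRPL22 (0.54) and COX5B (0.66) did not pass the test. The median over the list was 0.60, against 0.08 over all genes tested.

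The calls on the smaller values depended on the TMM factors. Scaled to total UMIs alone, the median of all genes lay at -0.43, ND2 at -2.89 and COX5A at 0.58, both still called, while SUCLG2 (0.19), ATPAF1 (0.19) and CMC (0.13) were not and ATPAF2 (-0.89) and HSP75 (-0.88) were called lower. The call on ATPAF1 was also lost without replicate 1 (log2 fold change 0.68), 3 (0.68) or 4 (0.60) and without the deepest 5% of barcodes (0.47), and that on CMC without replicate 1 (0.49).

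**Figure D2:**
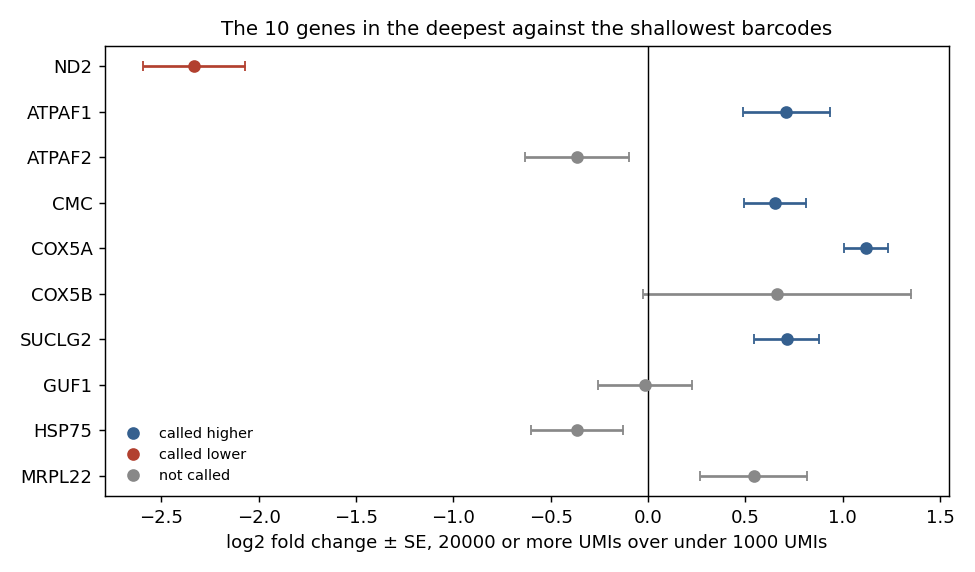
Log2 fold change of each of the 10 genes in barcodes with 20000 or more UMIs over those under 1000 UMIs (edgeR, TMM factors), with its SE as a bar and 0 as a line. ND2 lies at -2.33 and is the only gene called lower, and COX5A, SUCLG2, ATPAF1 and CMC are called higher at 0.65 to 1.12.

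Inside the marker-positive classes the deepest bin was set against that of 1000 up to 2000 UMIs, not against the shallowest. Under 1000 UMIs replicate 2 held no *Nvncol1*-positive barcode. There *Nvath-like*-positive barcodes had 0.193% of UMIs on ND2 in replicate 3, below their 0.218% in the deepest bin. Cell classes were defined by at least 1 UMI of a marker from the study's list, for which 12 of 13 IDs were found. In all 12 classes the ND2 share was lower in barcodes with 20000 or more UMIs than in those of 1000 up to 2000 UMIs in 4 of 4 libraries, with no overlap between the libraries of the deep and the shallow bin. Class means ran from 0.246% to 0.304% in the deep bin and from 1.79% to 4.10% in the shallow one. The highest, in *Nvnanos*, had an SD of 2.38 and rests on 47 shallow barcodes, with 6 in the smallest library. *Nvncol1* and *Nvmyc1* also had only 6 shallow barcodes in their smallest library. In *NvsnailA*-positive barcodes, for example, ND2 made up 0.362%, 0.248%, 0.232% and 0.262% of UMIs in the deep bin and 3.85%, 2.58%, 1.61% and 1.95% in the shallow one. With all *NvsnailA*-positive barcodes left out, an alternative chosen after the data were seen, the fold change of ND2 between the deepest and shallowest bin was -2.04 ± 0.27 (SE, edgeR adjusted p = 2.1e-06).

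ND2 had the highest Fano factor of the list, a measure that grows with the mean of an overdispersed gene. With each barcode thinned to 1000 UMIs (252, 209, 190 and 1266 shallower barcodes left out), this factor, the variance over the mean, was 60.2, 33.3, 42.1 and 31.3 in replicates 1 to 4. These ranked 4th, 9th, 7th and 6th among 11188, 10859, 9900 and 13345 genes. COX5A had 1.22, 1.15, 1.52 and 1.15, at means of 0.782 to 0.811 UMIs per barcode against 12.5 to 20.02 for ND2, and the other genes of the list stood between 0.977 and 1.20, where 1 is the value of counting noise. COX5B had too few UMIs for the factor in replicates 1 to 3.

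Marker classes were compared next, to ask whether the list differs between cell types. *Nvwnt2* marks trunk ectoderm. NV2g011441000.1 is listed for both an aboral and a pharyngeal gene and is therefore given by its ID. *NvsnailA* marks mesoendoderm, *Nvncol3* and *Nvncol1* mark cnidocytes, the stinging cells, and *Nvmucin* marks gland cells. *Nvelav*, *NvLWamide* and *NvashA* mark neurons, and *Nvath-like*, *Nvmyc1* and *Nvnanos* mark progenitors. The classes overlapped, since 40.3% of barcodes held 2 or more markers and 23.6% held none. They also differed in depth, from a median of 18668 UMIs in *NvsnailA*-positive barcodes and 14653 in *Nvelav*-positive ones to 2981 in *Nvmucin*-positive ones, and 1681 in barcodes with no marker. *Nvncol3*-positive barcodes were 41.7% of all and *Nvwnt2*-positive ones 30.4%. The part of a class with a single UMI of its marker ran from 35.8% (*Nvwnt2*) to 66.2% (*Nvelav*). The part that also held another of the markers ran from 61.6% (*Nvwnt2*) to 95.6% (*Nvncol1*). RNA from other cells in a droplet also gives a marker UMI, and its part was not tested.

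By class, ND2 took the smallest share of UMIs in *NvsnailA*-positive barcodes, at 0.446%, 0.363%, 0.307% and 0.370% in replicates 1 to 4. In ascending order of their means *Nvelav* (0.409% ± 0.0828), *Nvath-like* (0.413% ± 0.0807), *Nvmyc1* (0.427% ± 0.0788), *Nvncol1* (0.463% ± 0.103), NV2g011441000.1 (0.479% ± 0.0830), *Nvnanos* (0.488% ± 0.105), *NvLWamide* (0.493% ± 0.122), *NvashA* (0.494% ± 0.103), *Nvncol3* (0.589% ± 0.135), *Nvwnt2* (0.608% ± 0.114) and *Nvmucin* (0.735% ± 0.156) followed (SD, n = 4). Neighbours in that order differed by less than the larger of their SDs. Barcodes with no marker had 1.55% ± 0.315. The order of ND2 ran roughly against that of median depth.

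Over all barcodes ND2 was called lower in 5 of 12 classes, namely *NvsnailA* (log2 fold change -1.34 ± 0.18), *Nvelav* (-1.14 ± 0.19), *Nvath-like* (-0.89 ± 0.18), *Nvmyc1* (-0.86 ± 0.18) and NV2g011441000.1 (-0.72 ± 0.17, SE, edgeR). It was called higher in none, and *Nvmucin* (0.09) was the only class with a positive value. With the library as a block, since both sums of a comparison come from the same library, it was called lower in 11 of 12, all but *Nvmucin*. Without the deepest 5% of barcodes only the call in *NvsnailA* was left (-0.76), and *Nvelav* (-0.43), NV2g011441000.1 (-0.27), *Nvmyc1* (-0.24) and *Nvath-like* (-0.21) did not pass. The call in NV2g011441000.1 was also lost without replicate 2 (-0.74) or 4 (-0.67). With each barcode thinned to 1000 UMIs ND2 was called lower in *NvsnailA* (-0.62) and higher in *Nvmucin* (0.72), where the medians of all genes lay at -0.16 and -0.30, and it was called in no other class. The thinned classes were set anew, by a marker UMI left after thinning, and barcodes under 1000 UMIs were left out. Positive barcodes that lost their marker UMIs counted as negative, so thinned values do not compare the same sets of barcodes.

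Depth was then held fixed. Each marker-positive barcode was matched to a marker-negative one of the same library in steps of 0.25 on the log2 scale of total UMIs, which used 86.97% to 100% of the positive barcodes. For *NvsnailA* the median was 15168 UMIs in 1682 positive and 15030 UMIs in 1682 negative barcodes. After matching, ND2 was called in 0 of 12 classes by edgeR, with 1 at an unadjusted p under 0.05 (*Nvncol1*), and in 0 of 12 by DESeq2. Its fold changes ran from -0.35 ± 0.19 in *NvsnailA* to 0.50 ± 0.17 in *Nvncol1* (adjusted p = 0.091). *NvsnailA*-positive barcodes had 0.517%, 0.414%, 0.326% and 0.466% of UMIs on ND2, against 0.628%, 0.492%, 0.380% and 0.582% in matched negative ones. The values were lower in 4 of 4 libraries, but the groups overlapped.

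Pairing the sums by library changed these calls. With the library as a block ND2 was called in 8 of 12 matched comparisons, lower in *NvsnailA* (-0.35) and higher in *Nvncol1* (0.51), *Nvmucin* (0.43), *NvashA* (0.33), *Nvnanos* (0.20), *Nvmyc1* (0.15), *Nvncol3* (0.13) and *Nvwnt2* (0.12). *Nvmucin*-positive barcodes had 0.840%, 0.789%, 0.503% and 0.807% of UMIs on ND2, against 0.702%, 0.601%, 0.396% and 0.672% in matched negative ones, higher in 4 of 4 libraries. *Nvncol1* was also called higher without a block when 2 UMIs of the marker were asked for (0.77) or the deepest 5% of barcodes were left out (0.83). Scaled to total UMIs it had 0.12 ± 0.18 (SE, edgeR), where the median of all genes lay at -0.41, and ND2 was called in 0 of 12 matched classes by edgeR, with 0 at an unadjusted p under 0.05. The small value in *Nvwnt2* changed its sign when scaled to total UMIs (-0.01), and its shares were 0.732% ± 0.159 in positive and 0.737% ± 0.167 in negative barcodes.

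**Figure D3:**
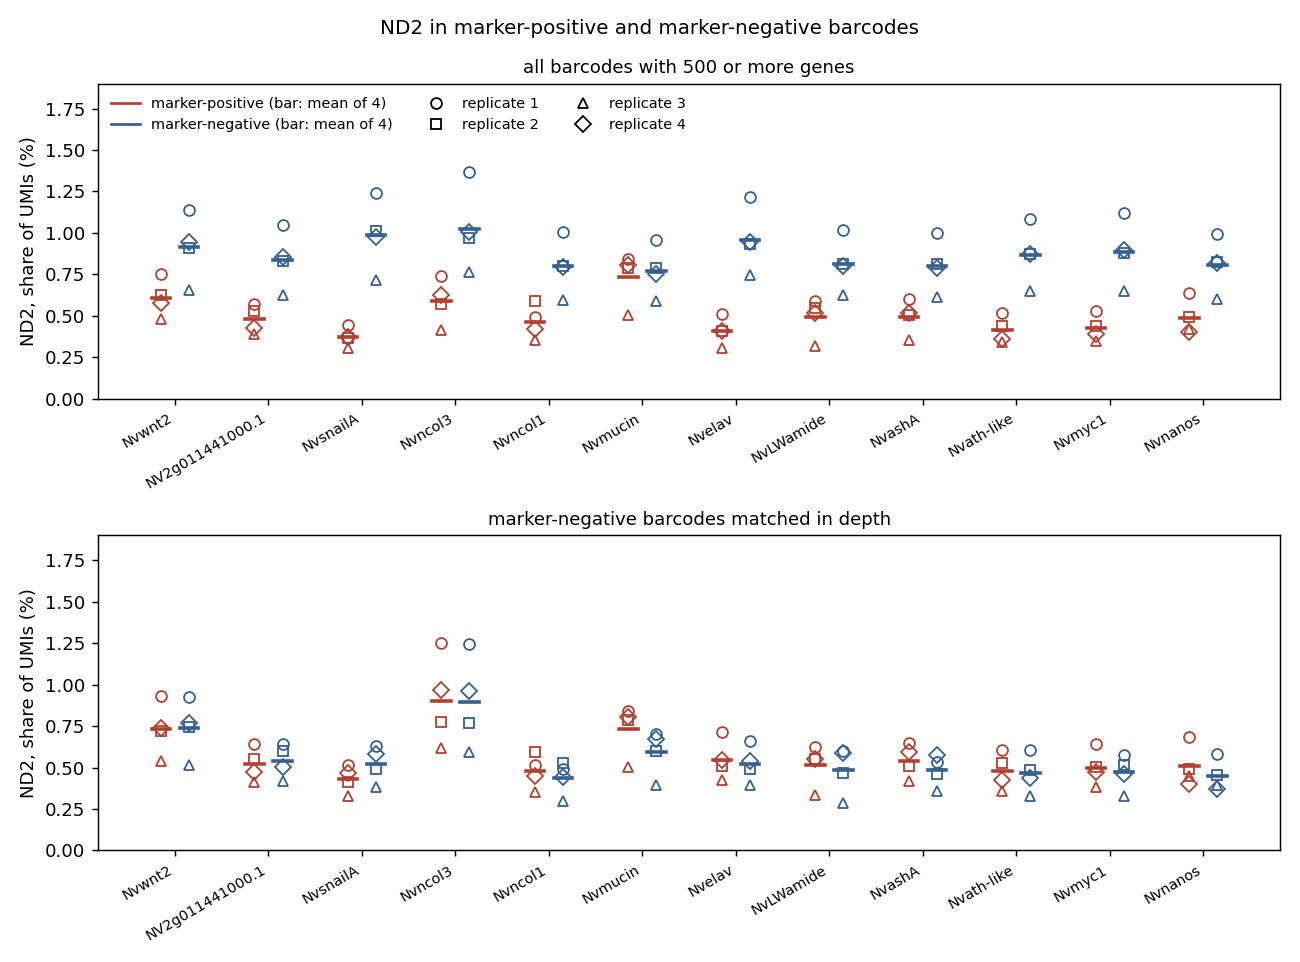
Percent of UMIs on ND2 in marker-positive (red, left of each pair) and marker-negative (blue, right) barcodes, over all barcodes (top) and with negative barcodes matched in depth (bottom). Symbols are the 4 libraries and bars their mean. In *NvsnailA* the means are 0.371% and 0.985% over all barcodes, and 0.431% and 0.521% after matching.

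Across the whole list 42 of 120 tests over all barcodes passed, 24 higher and 18 lower. With the library as a block it was 57, 34 higher and 23 lower. The counts by class that follow are without the block. In the ectodermal class *Nvwnt2* 6 of 10 genes were called, beside 47.1% of all genes tested, and in NV2g011441000.1 it was 3 beside 26.9%. *NvsnailA* had 7 beside 65.6%. Among cnidocyte and gland markers *Nvncol3* had 0 beside 15.7%, *Nvncol1* 3 beside 20.8% and *Nvmucin* 3 beside 19.6%. Of the neuronal markers *Nvelav* had 4 beside 33.1%, *NvLWamide* 1 beside 14.1% and *NvashA* 1 beside 28.9%. Progenitor markers had 6 beside 27.9% (*Nvath-like*), 6 beside 30.1% (*Nvmyc1*) and 2 beside 20.7% (*Nvnanos*). COX5A and SUCLG2 were each called higher in 7 classes and lower in none, by 0.20 to 0.35 and 0.25 to 0.38. With barcodes thinned to 1000 UMIs and classes set anew on the thinned counts, neither was called higher in any class. Both were called lower in *Nvncol1* (COX5A -0.73, SUCLG2 -1.73), where the median of all genes lay at -0.94. Of the 24 calls of higher, 10 were left on the scale of total UMIs and 1, COX5A in *Nvncol1*, changed its sign. HSP75 was called lower in 8 classes and higher in *NvsnailA*, with both directions kept on that scale. Without *NvsnailA*-positive barcodes it was called lower in *Nvncol1* (-0.82), *NvashA* (-0.67), *Nvelav* (-0.47) and *NvLWamide* (-0.46) and higher in NV2g011441000.1 (0.48), and the calls in *Nvwnt2* (-0.11), *Nvmucin* (-0.11), *Nvath-like* (-0.10), *Nvmyc1* (-0.26) and *Nvnanos* (-0.23) were lost.

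After matching, 15 of 120 tests passed, 6 higher and 9 lower. Counts of called genes were 4 beside 47.0% of all genes tested for *Nvwnt2*, 0 beside 11.5% for NV2g011441000.1 and 3 beside 64.3% for *NvsnailA*. They were 0 beside 9.43% for *Nvncol3*, 0 beside 14.3% for *Nvncol1* and 0 beside 13.3% for *Nvmucin*. Neuronal markers had 1 beside 9.79% (*Nvelav*), 0 beside 8.94% (*NvLWamide*) and 3 beside 26.6% (*NvashA*), and progenitor markers 2 beside 20.7% (*Nvath-like*), 1 beside 23.9% (*Nvmyc1*) and 1 beside 13.4% (*Nvnanos*). With the library as a block 28 of 120 passed, 16 higher and 12 lower. Scaled to total UMIs alone, the median of all genes lay at -0.41 in *Nvncol1*, -0.17 in *NvashA*, -0.14 in *Nvmucin* and -0.13 in *Nvwnt2* and *Nvncol3*, and 4 of the 120 tests passed higher and 16 lower. COX5A, the most abundant of the other 9 genes, was called in 0 of 12 matched classes by edgeR, with 0 at an unadjusted p under 0.05, and its values lay between -0.04 and 0.12. With the block it was called higher in *Nvwnt2* (0.09), and scaled to total UMIs it was called lower in *Nvncol1* (-0.26).

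COX5B, the rarest gene of the list, had the clearest pattern. *NvsnailA*-positive barcodes had 14.8, 14.2, 14.5 and 15.4 CPM in replicates 1 to 4, against 0.625, 0.674, 0.497 and 0.649 CPM in matched negative ones. These rest on 555 and 23 UMIs, and the groups were far apart in each library. The log2 fold change was 4.47 ± 0.15 (SE, edgeR adjusted p = 3.5e-08), with 4.44 to 4.66 over 16 alternatives, all of them called. *NvsnailA*-positive barcodes were 11.9% of all and held 35.5% of all UMIs, but 83.9% of the COX5B UMIs. A COX5B UMI was found in 24.3% of *NvsnailA*-positive and 0.896% of *NvsnailA*-negative barcodes, at median depths of 18668 and 3164 UMIs. In barcodes with 20000 or more UMIs the level was 12.99, 13.95, 14.8 and 12.9 CPM in the positive and 0.461, 0.693, 0.516 and 0.748 CPM in the negative ones. In barcodes of 2000 up to 5000 UMIs the positive ones were higher in replicate 4 alone. With 12 COX5B UMIs in all, they had 0, 0, 0 and 15.5 CPM in replicates 1 to 4, and the negative ones 1.84, 1.19, 6.93 and 6.43 CPM. With *NvsnailA*-positive barcodes left out COX5B was called lower in the deepest bin than in the shallowest (-2.92 ± 0.77, SE, edgeR), as was HSP75 (-1.09 ± 0.25). That COX5B value rests on 11 UMIs in the shallowest bin, at 0, 17.1, 0 and 7.84 CPM in replicates 1 to 4. COX5B was thus lower in the deepest bin in replicates 2 and 4 alone. The 2 shallowest bins of positive barcodes held only 1 and 4 COX5B UMIs, too few for a level.

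Other classes had less COX5B than their matched negatives. It was called lower in *Nvnanos* (-1.82 ± 0.21), *Nvmyc1* (-1.81 ± 0.17), *Nvath-like* (-1.41 ± 0.22), *NvashA* (-1.38 ± 0.40) and *Nvwnt2* (-1.18 ± 0.18, SE, edgeR). *Nvmyc1*-positive barcodes, for example, had 2.39, 2.13, 2.46 and 3.02 CPM, against 10.3, 9.24, 9.91 and 8.27 CPM in the negative ones. The call in *NvashA* was lost without replicate 1 (-1.52) or 3 (-1.34), and replicate 2 held no COX5B UMI in positive barcodes. The negative barcodes of these comparisons include the *NvsnailA*-positive ones. With those left out too few COX5B UMIs were left in matched barcodes for a test, and no matched value can be given. Without matching in depth, the values with those left out were -1.55 in *Nvmyc1* and -1.20 in *Nvwnt2*. With *NvsnailA*-positive barcodes counted, the positive barcodes of both markers were the deeper ones, at medians of 10904 against 3256 UMIs and 7075 against 2616.5 UMIs.

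*Nvelav*-positive barcodes were called higher, with 8.17, 13.3, 9.18 and 9.15 CPM of COX5B, against 6.41, 4.17, 3.94 and 5.29 CPM in matched negative ones (0.92 ± 0.20, SE, edgeR adjusted p = 0.018). That call was lost without replicate 2 (0.70), 3 (0.87) or 4 (0.99). Split by *NvsnailA*, the 628 barcodes with both markers had 14.9 ± 3.09 CPM and the 1285 with *Nvelav* alone had 1.06 ± 0.346 CPM. The 1287 with *NvsnailA* alone had 12.7 ± 2.06 CPM and the 12889 with neither had 1.45 ± 0.667 CPM (SD, n = 4). Without *NvsnailA*-positive barcodes the value over all barcodes was -0.42 ± 0.41 and did not pass.

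HSP75 was called in 4 matched classes, higher in *NvsnailA* and lower in 3. *NvsnailA*-positive barcodes had 30.3, 37.8, 37.6 and 33.9 CPM, against 16.7, 15.7, 12.4 and 13.6 CPM in matched negative ones, with no overlap and a log2 fold change of 1.17 ± 0.12 (SE, edgeR adjusted p = 1.8e-05). The difference was also present in the deepest bin, at 30.2 ± 2.61 CPM in positive and 12.9 ± 2.12 CPM in negative barcodes (SD, n = 4). HSP75 was called lower in *NvashA* (-0.54), *Nvath-like* (-0.32) and *Nvwnt2* (-0.26). None of these 3 calls held without *NvsnailA*-positive barcodes, where the values were -0.26, 0.23 and 0.03, and with 1 library left out that in *Nvath-like* was lost each time (-0.38 to -0.27), that in *NvashA* without replicate 1, 2 or 4 and that in *Nvwnt2* without replicate 2, 3 or 4, at folds of -0.67 to -0.41 and -0.34 to -0.19. Without *NvsnailA*-positive barcodes HSP75 was called higher in NV2g011441000.1 (0.72). With the library as a block it was also called lower in *Nvmyc1* (-0.33).

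**Figure D4:**
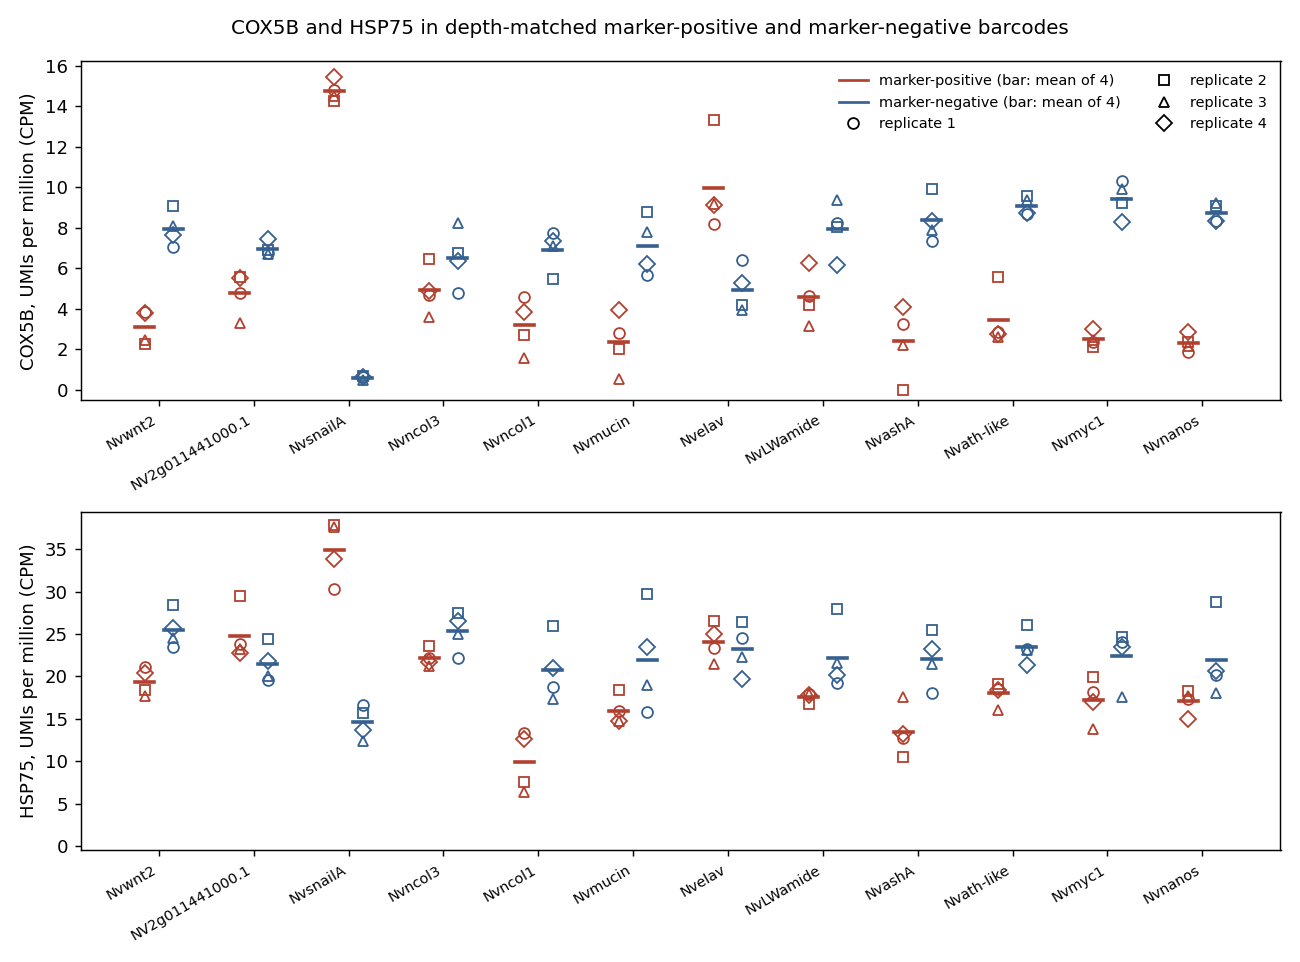
CPM of COX5B (top) and HSP75 (bottom) in marker-positive (red, left of each pair) and depth-matched marker-negative (blue, right) barcodes, by marker. Symbols are the 4 libraries and bars their mean. For *NvsnailA* the means are 14.7 and 0.611 CPM for COX5B and 34.9 and 14.6 CPM for HSP75, with no overlap of libraries.

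MRPL22 was called higher in *NvsnailA*, with 17.1, 16.6, 15.8 and 14.5 CPM in positive barcodes against 12.1, 12.3, 10.1 and 10.9 CPM in matched negative ones (0.42 ± 0.11, SE, edgeR adjusted p = 0.0088). *Nvwnt2* had higher ATPAF1 (0.25) and CMC (0.18), and *NvashA* lower CMC (-0.32). The first of these was lost without replicate 2 (0.21), and on the scale of total UMIs neither *Nvwnt2* call held (0.13 and 0.05). The call of CMC in *Nvwnt2* was lost without any 1 of the libraries, at 0.16 to 0.19, and that in *NvashA* without replicate 1 (-0.36), 2 (-0.29) or 3 (-0.26). ATPAF2, SUCLG2 and GUF1 were called in no matched class by edgeR, at values from -0.18 to 0.19, -0.17 to 0.32 and -0.19 to 0.38. With the block SUCLG2 was called higher in *Nvwnt2* (0.14) and *Nvmucin* (0.33) and lower in *Nvncol3* (-0.18). In total 7 of the 15 matched calls, COX5B in *NvsnailA*, *Nvwnt2*, *Nvath-like*, *Nvmyc1* and *Nvnanos* and HSP75 and MRPL22 in *NvsnailA*, were called in every alternative of scaling, filter, minimum, matching and left-out library that could be fitted. Leaving out *NvsnailA*-positive barcodes is not among those alternatives, and for matched COX5B it could not be fitted. The lower COX5B calls therefore all have negatives that include *NvsnailA*-positive barcodes.

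The study's filter removes barcodes with over 10% of UMIs on the list. It marked 309 barcodes, or 1.92% (exact 95% interval 1.71% to 2.14%, counting error only), with 136, 53, 36 and 84 in replicates 1 to 4. ND2 alone marked 304 of them, and the other 5 passed the threshold only with the other 9 genes added. The other 9 genes together marked 0 of 16089, which allows a share of up to 0.0229%, and reached at most 2.63% of UMIs in any barcode. ND2 made up 99.6% of the list's UMIs in the marked barcodes. The other 9 genes stood at 618 CPM in marked barcodes and 1177 CPM in the rest.

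Marked barcodes were shallow, with a median of 1284 UMIs against 3858 in the rest. From the shallowest to the deepest bin they numbered 62, 190, 52, 5, 0 and 0. The share was highest in the bin of 1000 up to 2000 UMIs, at 12.9%, 7.44%, 5.28% and 2.40% of barcodes in replicates 1 to 4. In barcodes with no marker 3.69% were marked (140 of 3791), against 0.372% to 1.44% in the 12 marker-positive classes, where *Nvath-like* was lowest and *Nvncol3* highest. Depth differs between these groups too. Within 1000 up to 2000 UMIs 43.2% of the 190 marked barcodes had no marker, against 34.7% of the 3400 others.

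**Figure D5:**
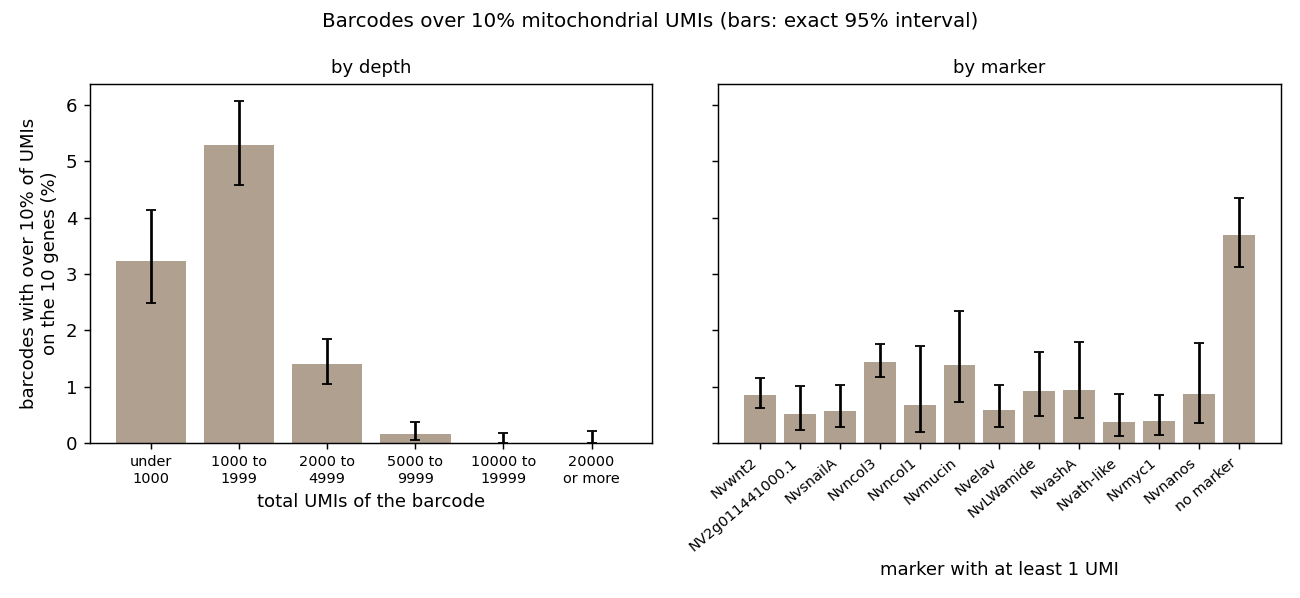
Percent of barcodes with over 10% of UMIs on the 10 genes, by bin of total UMIs (left) and by marker with at least 1 UMI (right), with exact 95% intervals that cover counting error only. The bars start at 0. The share is 5.29% at 1000 up to 2000 UMIs and 0 from 10000 UMIs on, and 3.69% in barcodes with no marker.

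The genes whose pattern was most like that of ND2 were found over 48 points, the 12 classes in 4 libraries, among 8857 genes with a mean of at least 10 CPM. The measure was Pearson's r of log2(CPM + 1), a description only, since the classes share barcodes and libraries. NV2g016634000.1 (r = 0.735) and NV2g003947000.1 (r = 0.719) came closest to ND2, at 76.4 and 23.9 CPM. Neither was called between the deepest and the shallowest bin (log2 fold changes -0.35 and -0.45). Next in the order of r came NV2g002981000.1 (r = 0.679), called higher in the deepest bin (0.58). NV2g013030000.1 (r = 0.669, at 3788 CPM) was called lower (-1.92), and NV2g004259000.1 (r = 0.667) was not called (0.09). For COX5A the closest were NV2g008580000.1 and NV2g007285000.1, with r = 0.901 each, and both were called higher in the deepest bin (1.11 and 0.94). ND2 and COX5A themselves had r = 0.111. The 8 genes of the list other than COX5A and COX5B that could be set beside it had r of -0.22 to 0.75 with COX5A.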

How the data were processed

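The authors aligned the reads with CellRanger to introns and exons of the *N. vectensis* annotation and deposited counts of UMIs per gene and barcode, raw and not normalized, 1 matrix per library. The matrix headers name cellranger 6.1.2 and the submitters' processing notes name Cell Ranger 7.1.1. The study's methods name a version that differs from both. No build name was found in the labels or headers. No deposited column of values was left unmapped (0).

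Counts were read with Python 3.11.15, numpy 2.4.6, pandas 2.3.3 and SciPy 1.17.1. Barcodes needed at least 500 genes, and no doublets were removed. UMIs were summed per library and class or bin and compared with edgeR 4.0.16 in R 4.3.3 by its quasi-likelihood test (TMM factors, filterByExpr, adjusted p under 0.05), which was tested on simulated data. Standard errors were taken as the size of a log2 fold change over the root of its F statistic. DESeq2 1.42.0 was an alternative, beside other scalings, filters, minimums, matchings, a library block and leaving out each library. Both sums of a comparison come from the same library, which pairs them. Their deviations from group means had correlations of 0.0429 to 0.712 (median 0.320, 96 pairs).

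The genes named are the 10 of the list and, for ND2 and COX5A, the 2 genes most correlated with each across classes. For ND2 the genes next in that order are also named. The members and lists were chosen with earlier results of these data known. The 13th marker, *NvNgal*, was not analysed, because its listed ID matched no row of the counts. The RefSeq table at hand matched 0 of 24526 IDs, so no sequence or position is given. Figures were drawn with matplotlib 3.10.9.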

Additional observations from a re-analysis of the deposited data

Results flagged for a closer look

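In 76 groups of 4 libraries examined, 3 held a library whose gap to the nearest other exceeded Dixon's 95% value of 0.829 times the range, and chance gives about 1 in 20. ND2 in barcodes of 2000 up to 5000 UMIs had 23021 CPM in replicate 1, against 13817 to 14781 CPM in the others. ND2 in depth-matched *Nvmucin*-positive barcodes had 5026 CPM in replicate 3, against 7891 to 8405 CPM. COX5B (NV2g000772000.1) in depth-matched *Nvath-like*-positive barcodes had 5.59 CPM in replicate 2, against 2.60 to 2.88 CPM.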

How the results depend on the processing

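Single values were followed for ND2 in each class, for the other genes called after matching and for the 10 genes between bins. Of these 772 values under other settings, 641 kept their direction and their side of the threshold, 63 lost the call, 41 gained it and 27 changed sign, none of the 27 called both times. Among values not in that count, COX5A (NV2g024053000.1) in *Nvncol1* over all barcodes was called higher (0.26) and, thinned to 1000 UMIs, called lower (-0.73, with the median of all genes at -0.94). Thinned classes were set on the thinned counts, so the sets of barcodes differ. The 24 higher and 18 lower calls over all barcodes became 34 and 23 with the library block and 10 and 35 without TMM factors. They became 14 and 9 without the deepest 5% of barcodes, 2 and 4 when thinned to 1000 UMIs (108 of 120 tests could be fitted), and 14 to 20 and 11 to 16 with 1 library left out. Without *NvsnailA*-positive barcodes, chosen after the data were seen, 17 were higher and 10 lower. The 6 higher and 9 lower matched calls became 16 and 12 with the library block, 4 and 16 without TMM factors, 8 and 4 without the deepest 5%, 2 and 1 without *NvsnailA*-positive barcodes (fewer tests), and 3 to 5 and 5 to 7 with 1 library left out. Between bins, 4 higher and 1 lower became 1 and 3 without TMM factors, 4 and 3 without *NvsnailA*-positive barcodes, and 2 to 4 and 1 with 1 library left out. The 309 barcodes over 10% became 0 by the other 9 genes, 866 at 5%, 51 at 20%, and 539, 68 and 619 with a minimum of 300, 1000 or no genes. The share of 0.886% was 1.73% as a mean over barcodes.

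Log2 fold changes that changed sign were, for ND2 over all barcodes, 0.51 (*Nvncol3*), 0.057 (*Nvelav*), 0.20 (*NvLWamide*) and 0.030 (*NvashA*) when thinned, 0.41 (*Nvncol1*) and 0.14 (*NvashA*) without the deepest 5%, and -0.070 (*Nvmucin*) without TMM factors. In matched barcodes they were -0.011 (*Nvwnt2*) without TMM factors, -0.022 (*Nvelav*) matching from the end of the barcode order, and, without *NvsnailA*-positive barcodes, -0.022 (*Nvwnt2*), -0.0084 (*Nvath-like*) and -0.0053 (*Nvmyc1*) for ND2 and 0.032 (*Nvwnt2*) and 0.23 (*Nvath-like*) for HSP75. Between bins ATPAF2 had -0.83 to 0.14 with 1 library left out, positive without replicate 1, 0.0042 as a slope per doubling of UMIs and 0.25 against the second bin. GUF1 had 0.10 with no filter on low counts, 0.025 with the block, -0.14 to 0.16 with 1 library left out, positive without replicates 1 (0.16) and 3 (0.032), 0.0057 as a slope, 0.13 against the second bin, 0.027 without the deepest 5% and 0.097 from 300 genes. HSP75 had 0.055 against the second bin and COX5B -2.92 without *NvsnailA*-positive barcodes. The cause was not tested in any of these. The 8 scarce genes limit what a shallow barcode can show, since COX5B had 850 UMIs in all.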
